A study of Homo sapiens with 6 samples.

Results

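RNA polymerase II, the kinases that phosphorylate its tail, the factors that hold or release it near promoters and the Mediator complex form one machine for making messenger RNA. The genes described here were 49 named components of that machine, and all 49 were found by symbol, once each, among the 23026 genes of the deposited normalized table. They comprise 12 polymerase II subunits, 10 kinases and cyclins, 3 inhibitors of the elongation kinase P-TEFb, 6 pausing and elongation factors, 5 general initiation factors, 11 Mediator subunits and 2 phosphatases. The genes were listed by name, without a filter on a measured value, but with earlier results of these data known.

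The cells were T98G, an established human glioblastoma line, transduced in suspension with a lentivirus carrying either a control short hairpin RNA (shControl, 3 libraries, 1A, 1B and 1C) or one directed against the protein kinase DYRK1A (shDYRK1A, 3 libraries with the same names), and then selected in puromycin. The hairpins lower DYRK1A and do not delete it, and both conditions carry the virus and the selection. Before RNA extraction, T98G cells had been mixed, in equal numbers for each condition, with the same amount of Drosophila Kc167 cells throughout, and the fly RNA served as an external scale (spike-in). The labels do not say that the 3 libraries of a condition came from separate infections, so the p-values below measure the spread between these libraries, which may be technical.

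The largest polymerase II subunit ends in a long tail, the C-terminal domain (CTD), built from repeats of 7 amino acids. Kinases add phosphates to serines 2, 5 and 7 of the repeats as the polymerase moves from initiation through pausing into elongation. Phosphatases remove these phosphates. TFIIH carries the kinase CDK7 with cyclin H and MNAT1, P-TEFb carries CDK9 with a cyclin T, CDK12 and CDK13 pair with cyclin K, and CDK8 belongs to a detachable module of Mediator, the complex that relays signals from enhancer-bound factors to the polymerase. DYRK1A is itself known to phosphorylate this tail, and the comparison asks whether the mRNAs of the other parts of the machine differed when DYRK1A was lowered. Neither protein levels nor tail phosphorylation were measured in these libraries.

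The tail is shown because it is the substrate shared by every kinase in the set. In the full-length POLR2A transcript of GENCODE v29 (ENST00000617998.4, 6751 bases), which that annotation gives no coding frame, the frame was found by a search for the consensus repeat. In that frame 21 units encoded the consensus repeat in all 7 positions, and 15 of these followed each other without a break. The first 10 units of that run span 210 bases in exon 29 of 29, at GRCh38 chr17:7513170-7513379 on the plus strand. They are printed 5′ to 3′ with the codons of serines 2, 5 and 7 in capitals.
POLR2A repeat units: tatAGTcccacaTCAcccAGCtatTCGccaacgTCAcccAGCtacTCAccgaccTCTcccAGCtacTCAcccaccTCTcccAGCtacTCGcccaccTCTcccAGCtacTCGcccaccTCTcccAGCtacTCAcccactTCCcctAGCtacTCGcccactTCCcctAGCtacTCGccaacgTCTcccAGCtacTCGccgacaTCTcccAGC
Every unit encodes the same 7 amino acids. The capitals in these 10 units hold 30 serine codons, of 6 different kinds, so the units differ in letters but not in the amino acids they encode.

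The second sequence is shown because DYRK1A has been found at promoters that hold the palindrome TCTCGCGAGA, which reads the same on both strands. In RefSeq promoters of GRCh38.p14, taken from 250 bases before to 50 bases after each start, the palindrome was present in 149 of 35116 windows (0.424%). Among the genes of the set, 41 had an entry, with 52 windows, and the only gene with the palindrome was SUPT5H, in 2 overlapping windows. SUPT5H encodes the large subunit of DSIF, a factor that pauses polymerase II and later travels with it. The window at chr19:39445332-39445631, plus strand, has the palindrome, in capitals, 25 bases before the start.
SUPT5H promoter: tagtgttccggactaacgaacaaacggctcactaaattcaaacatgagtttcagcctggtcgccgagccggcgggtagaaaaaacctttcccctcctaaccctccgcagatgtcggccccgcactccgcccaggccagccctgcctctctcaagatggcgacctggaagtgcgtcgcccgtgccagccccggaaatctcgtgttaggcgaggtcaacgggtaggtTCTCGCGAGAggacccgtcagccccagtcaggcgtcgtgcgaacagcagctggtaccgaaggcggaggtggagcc
A match of letters is a description and not evidence that a protein binds there. Of the 73 other pathway genes with an entry, 1 held the palindrome, CCNC, which encodes the cyclin of CDK8.

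Gene counts summed to between 33708297 and 42154438 per library. Counts divided by the spike-in size factors are called normalized counts here, and CPM is counts per 1000000 human gene counts. Normalized counts were lowest in shControl 1C among the control libraries for all 46 tested genes of the set (99.1% of all tested genes) and lowest in shDYRK1A 1B among the knockdown libraries for 34 of them (79.8% of all tested genes). Library shDYRK1A 1B also had the highest share of unmapped reads, 15.6%, against 8.44 to 11.9% in the others. DYRK1A had normalized counts of 2227, 2234 and 1895 (shControl, in the order 1A, 1B, 1C) against 1482, 1056 and 1285 (shDYRK1A, same order, as for all triplets that follow), a log2 fold change of -0.73 (SE 0.15, edgeR adjusted p 5.33e-06). The 8 glioma line markers summed to 4308 to 4357 CPM in shControl and 3831 to 3989 in shDYRK1A. Of these, VIM, CD44, FN1 and SOX9 stood between 33.7 and 1975 CPM in every library, NES at 1.29 to 2.02 CPM, and CHI3L1 at means of 4.36 CPM in shControl and 13.5 in shDYRK1A, whereas the astrocyte markers GFAP (0 to 4 counts) and S100B (0 counts in every library, where 3 counts would be 0.0712 to 0.089 CPM) were at or near 0. Markers of immune cells summed to 0.617 to 1.14 CPM in shControl and 1.16 to 1.39 in shDYRK1A, and those of endothelial cells to 0.641 to 0.937 and 0.618 to 0.954 CPM. The neuronal list summed to 10.9 to 12.6 CPM in shControl and 6.82 to 7.29 in shDYRK1A. Most of that sum was SNAP25, at means of 10.6 and 5.8 CPM, while RBFOX3 had 0 to 1 counts. The epithelial list summed to 20.2 to 22.1 CPM in shControl and 30.3 to 34.3 in shDYRK1A. Most of it was KRT8, at means of 20.3 and 30.4 CPM, while CDH1 had 0 to 2 counts. The part of these shifts in the results was not tested.

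With spike-in scaling, the mRNAs of this machine were lower in shDYRK1A by a median of 0.33 on the log2 scale, while together they took 3305 to 3327 CPM in the shControl libraries and 3595 to 3660 CPM in the shDYRK1A libraries. Of the 46 genes with more than 10 CPM on average, 24 were lower at an adjusted p below 0.05 (edgeR's quasi-likelihood test, adjusted over 9697 genes) and 0 were higher. That is 52.2% of them, beside 63.4% lower and 1.08% higher among all 9697 genes. At an unadjusted p below 0.05, 27 were lower and 0 higher, and DESeq2's Wald test with the same size factors called 28 lower and 0 higher. Shares of all genes are not given for these counts, so they cannot be set against a background. The median log2 fold change was -0.33 in the set and -0.40 over all tested genes, and 43 of the 46 values were below 0 (93.6% of all genes). Cell numbers were set equal before RNA extraction, and in bulk libraries an error in that cell number and a difference in RNA per cell cannot be told apart.

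**Figure D1:**
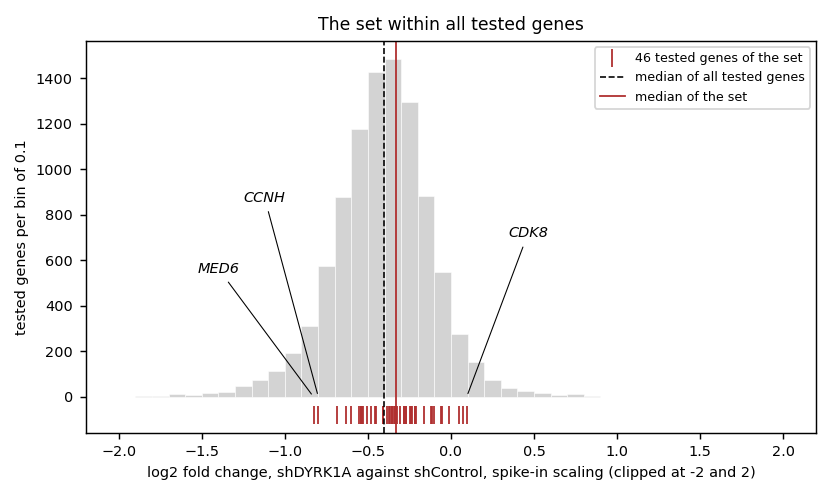
Log2 fold changes of all 9697 tested genes (grey bars, genes per bin of 0.1, spike-in scaling) with the 46 tested genes of the set as red ticks. The median of the set (red line, -0.33) lies just to the right of the median of all genes (dashed line, -0.40), with MED6 and CCNH at the left end and CDK8 at the right end.

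Past the study's fold threshold of 0.7 on the log2 scale, 2 of the 46 genes were lower, CCNH and MED6 (4.35%, beside 14.3% of all genes), and 0 were higher (0.278% of all genes, with 0 also by DESeq2). MED21 (-0.68), CDK7 (-0.63) and MNAT1 (-0.60) lay just outside it, and without shControl 1C these 3 passed it as well, giving 5 genes. Without reference to a test, all 3 shDYRK1A libraries lay below all 3 shControl libraries in normalized counts for 24 of the 46 genes (52.2%, beside 63.6% of all genes) and above them for 0 (1.59% of all genes). Both the test and this separation held for 22 genes, a count without a matching share of all genes. POLR2K and CCNT2 passed the test although their groups overlapped.

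Scaling by the human genes (TMM) removes a shift common to most mRNAs, and it moved the median of all genes from -0.40 to 0.00. On that scale 6 genes of the set were lower (13.0%, beside 28.6% of all genes) and 16 were higher (34.8%, beside 27.3% of all genes). The 6 were the TFIIH kinase CDK7 with its partners CCNH and MNAT1, the subunit POLR2C, and the Mediator subunits MED6 and MED21, and all 6 were also lower with the spike-in. The 16 that were higher were POLR2A, POLR2E, POLR2G, POLR2I, POLR2J, POLR2L, CDK8, HEXIM1, MEPCE, SUPT4H1, SUPT5H, GTF2B, GTF2F1, MED24, CTDP1 and SSU72. Of these 16, 0 had been called with the spike-in.

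**Figure D2:**
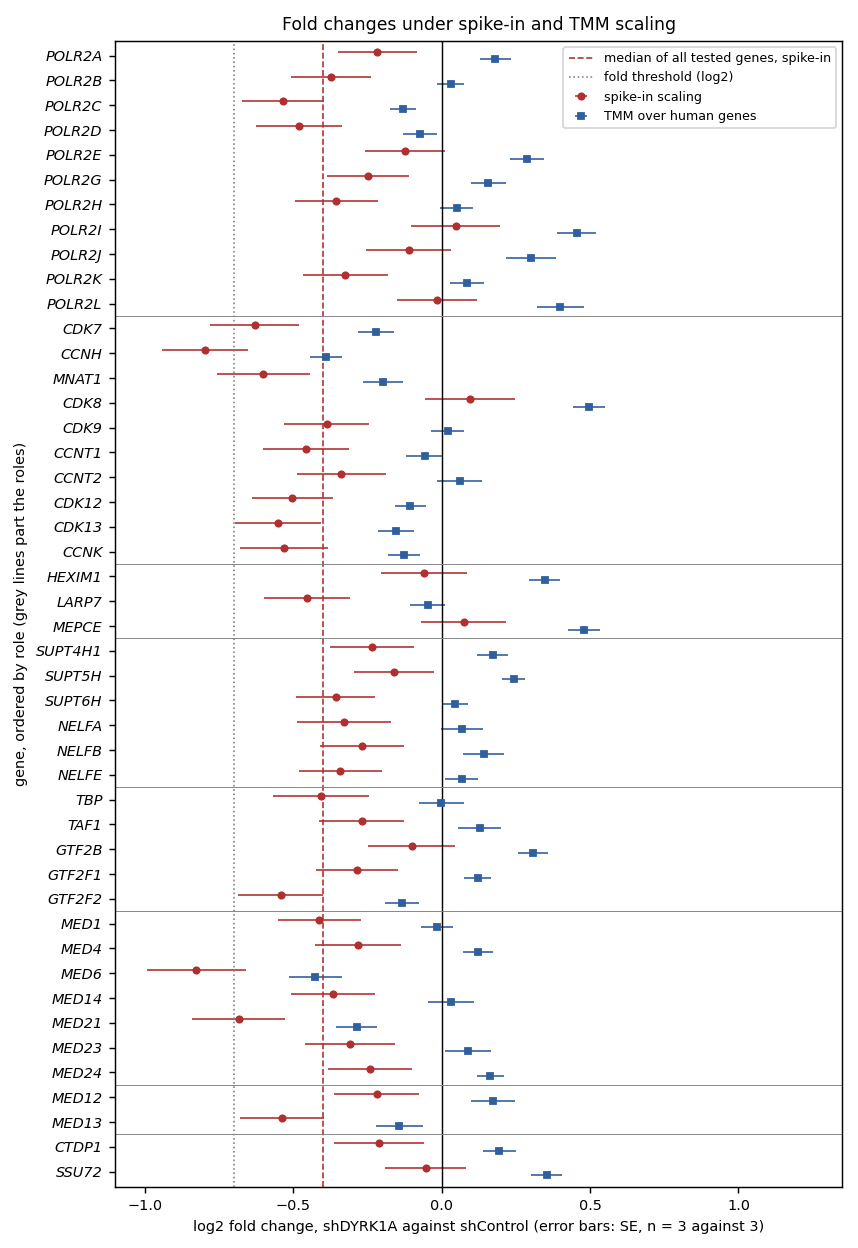
Log2 fold change of each tested gene with spike-in scaling (red circles) and TMM scaling (blue squares), with the standard error as bars (n = 3 against 3). The 2 series run in parallel about 0.40 apart, and CDK7, CCNH, MNAT1, MED6 and MED21 lie at the left under both.

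The number of genes called also depended on single libraries. It was 12 without shControl 1A, 15 without shControl 1B, 15 without shDYRK1A 1B, 16 without shDYRK1A 1C, 29 without shDYRK1A 1A and 34 without shControl 1C. Matching shares of all genes are not given for these fits, and whether the changes were particular to the set was not tested. Of the 24 genes, 11 were lower in all 6 of these fits, namely POLR2C, CDK7, CCNH, MNAT1, CDK12, CDK13, CCNK, GTF2F2, MED6, MED21 and MED13. The other 13 lost the call in at least 1 fit. Without shControl 1A these were POLR2B, POLR2D, POLR2H, POLR2K, CDK9, CCNT2, LARP7, SUPT6H, NELFE, TBP, MED1 and MED14. POLR2B, POLR2H, POLR2K, CCNT2, SUPT6H, TBP and MED14 were also lost without shControl 1B, together with CDK9 and NELFE, and without shDYRK1A 1B, together with MED1 and CCNT1. Without shDYRK1A 1C the call was lost for POLR2H, POLR2K, CDK9, CCNT2, LARP7, SUPT6H, NELFE and TBP.

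Of the 11 tested subunits of the polymerase itself, 5 fell (POLR2B, POLR2C, POLR2D, POLR2H and POLR2K, or 45.5%, beside 63.4% of all genes) and 6 did not pass the test, with a median of -0.25 that became 0.16 under TMM. POLR2A (ENSG00000181222, GRCh38 chromosome 17, 7484366 to 7514616, plus strand, protein coding), the catalytic subunit with the tail, had 10259, 10290 and 8702 normalized counts in shControl and 9487, 6914 and 8758 in shDYRK1A. The groups overlapped, since 2 of the 3 shDYRK1A libraries lay above shControl 1C. Its log2 fold change was -0.22 (SE 0.13, edgeR adjusted p 0.135), became 0.18 under TMM (edgeR adjusted p 0.0118), and passed the test with the spike-in without shControl 1C (-0.32).

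POLR2B, which forms the active site together with POLR2A, fell by 0.37 on the log2 scale (edgeR adjusted p 0.0109; 0.03 under TMM). The most negative fold change among the subunits was that of POLR2C, part of the core on which the enzyme assembles. POLR2C had 4929, 4757 and 4142 normalized counts in shControl and 3466, 2978 and 3101 in shDYRK1A, with every shDYRK1A library below every shControl library. It fell by 0.53 (SE 0.14, edgeR adjusted p 0.000431), and by 0.13 under TMM (edgeR adjusted p 0.0246). POLR2J, which pairs with POLR2C in that core, had a log2 fold change of -0.11 (0.30 under TMM), but it has near-identical gene copies between which reads may be split, so its value is uncertain. Within each library, where no scaling enters, the log2 ratio of POLR2C to POLR2J counts was 0.97, 0.89 and 0.93 in shControl and 0.64, 0.32 and 0.56 in shDYRK1A. This pair and the other gene pairs below were picked after their values were seen, and their ratios are descriptions without a test.

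POLR2D, which with POLR2G forms the stalk of the enzyme, fell by 0.48 (edgeR adjusted p 0.00234), and POLR2G had a log2 fold change of -0.25 (edgeR adjusted p 0.101) with groups that did not overlap. Among subunits shared with RNA polymerases I and III, POLR2H (-0.36) and POLR2K (-0.32) passed the test, whereas POLR2E (-0.12) and POLR2L (-0.01) did not. The groups of POLR2K overlapped, since shDYRK1A 1A (2186 normalized counts) lay above shControl 1C (2074). POLR2I, which helps the enzyme correct transcription errors, had 1309, 1333 and 1094 normalized counts in shControl and 1348, 1284 and 1226.5 in shDYRK1A. These groups overlapped, with a log2 fold change of 0.05 (SE 0.15, edgeR adjusted p 0.786) that became 0.46 under TMM (edgeR adjusted p 0.000143). POLR2I (-0.04 without shControl 1C) and POLR2L (0.02 to 0.06 in 3 of the fits that left out 1 library) had no stable sign.

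POLR2F, another shared subunit, could not be assessed. It had 8, 13 and 11 raw counts in shControl and 7, 8 and 9 in shDYRK1A, which is 1.67 normalized counts per kb of exon in shControl, beside 428 for POLR2D, the next lowest subunit. The cause was not tested.

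Levels between genes were compared per kb of exon (merged exons of GENCODE v29). In shControl the order was POLR2L (5603 ± 633 normalized counts per kb, SD, n = 3), POLR2G (2193 ± 168), POLR2J (1785 ± 158), POLR2E (1485 ± 179), POLR2K (1465 ± 219), POLR2B (1286 ± 138), POLR2C (1170 ± 105), POLR2A (1167 ± 109), POLR2H (1126 ± 140), POLR2I (981 ± 104) and POLR2D (428 ± 54.0). The libraries of POLR2L lay above all others, those of POLR2G above those of POLR2J, and those of POLR2D below all others. From POLR2J to POLR2I each gene overlapped with the next in the order, so neighbours there cannot be ranked beyond their spread. Some genes further apart overlapped too, such as POLR2E (1294 to 1651 per kb in shControl) and POLR2B (1132 to 1398), and others did not. The lowest POLR2J library (1603 per kb) lay above every library of POLR2K, POLR2B, POLR2C, POLR2A, POLR2H and POLR2I. The lowest POLR2E library (1294 per kb) lay above every library of POLR2C, POLR2A, POLR2H and POLR2I. The spread between libraries does not cover the uncertain count of POLR2J or errors in length. Merged exons can exceed the mRNA made (8355 bases for POLR2A, beside 6751 in its full-length transcript). The order between genes is therefore a description only. In shDYRK1A, POLR2I (1014 ± 47.9 per kb) lay above POLR2C (808 ± 64.4 per kb) in every library, whereas in shControl POLR2C had the higher mean of the pair.

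**Figure D3:**
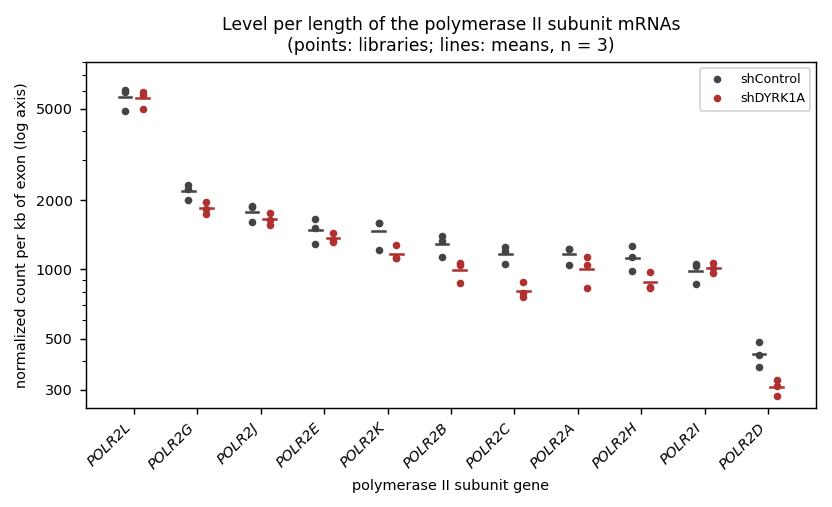
Normalized counts per kb of exon for the 11 tested polymerase II subunits (log axis), with each library as a point and the mean of 3 libraries as a line. POLR2L stands above and POLR2D below the rest in both conditions, and the red points of POLR2B, POLR2C, POLR2D, POLR2G and POLR2H lie wholly below the grey ones.

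Of the 10 kinases of the tail and cyclins, 9 fell and 1 (CDK8) did not pass the test (90.0% lower, beside 63.4% of all genes), with a median of -0.52 (-0.12 under TMM). Whether this group differs from other genes was not tested. The TFIIH kinase module, which phosphorylates serines 5 and 7 at promoters, was lower in all 3 of its parts. CCNH (cyclin H, ENSG00000134480, GRCh38 chromosome 5, 87391494 to 87413019, minus strand, protein coding) had 2849.9, 2659.9 and 2270.5 normalized counts in shControl and 1570.0, 1424 and 1478.5 in shDYRK1A. Every shDYRK1A library was thus well below every shControl library. CCNH fell by 0.80 (SE 0.14, edgeR adjusted p 4.07e-07), and by 0.39 under TMM (edgeR adjusted p 0.000112).

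CDK7 (ENSG00000134058, chromosome 5, 69234795 to 69277430, plus strand), the kinase itself, had 1777, 1851 and 1521 normalized counts in shControl and 1172, 1090.5 and 1066 in shDYRK1A. It fell by 0.63 (SE 0.15, edgeR adjusted p 0.000124), and by 0.22 under TMM (edgeR adjusted p 0.00904). MNAT1, the assembly factor of the module (ENSG00000020426, chromosome 14, 60734742 to 60969953, plus strand, 3.16% of its exonic bases shared with another gene), had 1021, 978 and 796 normalized counts in shControl and 693, 515 and 635 in shDYRK1A. It fell by 0.60 (SE 0.16, edgeR adjusted p 0.000447), and by 0.20 under TMM (edgeR adjusted p 0.025). For each of these 3 genes the groups did not overlap. Relative to POLR2A within the same library, the log2 ratio of CCNH counts was -1.85, -1.95 and -1.94 in shControl and -2.60, -2.28 and -2.57 in shDYRK1A. The ratios of CDK7 and MNAT1 were likewise lower in every shDYRK1A library, by 0.40 and 0.38 on average. This was not particular to the module, since many other genes of the set had the same order, among them CDK12, POLR2B, TBP, SUPT6H and MED1. The ratio was higher in every shDYRK1A library for CDK8, POLR2I, HEXIM1, MEPCE and GTF2B, and the groups of the remaining genes overlapped.

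P-TEFb, which phosphorylates serine 2 and the pausing factors, was lower in all of its measured parts with the spike-in. Under TMM none of these parts passed the test. CDK9 fell by 0.39 (edgeR adjusted p 0.0122; 0.02 under TMM), CCNT1 by 0.46 (edgeR adjusted p 0.00365; -0.06 under TMM) and CCNT2 by 0.34 (edgeR adjusted p 0.0384; 0.06 under TMM). The groups of CCNT2 overlapped, since shDYRK1A 1A (1441 normalized counts) lay above shControl 1C (1323). CDK12, CDK13 and cyclin K, which maintain serine 2 phosphorylation along long genes, fell by 0.50, 0.55 and 0.53 (edgeR adjusted p 0.000781, 0.000461 and 0.000963). Under TMM their log2 fold changes were -0.10, -0.15 and -0.13, none past the test. CDK12 and CDK13 were lowest in shDYRK1A 1B, with 3322 and 1342 normalized counts, beside 4526 and 1890.4 in shDYRK1A 1A.

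CDK8, the kinase of the detachable Mediator module, was the only gene of this group that did not pass the test with the spike-in. Its libraries held 1292, 1324 and 1069 normalized counts in shControl and 1482, 1130.3 and 1320.4 in shDYRK1A, with groups that overlapped. Its log2 fold change was 0.09 (SE 0.15, edgeR adjusted p 0.577) with the spike-in, -0.00 without shDYRK1A 1A, and 0.50 (edgeR adjusted p 2.1e-05) under TMM. Its paralog CDK19, which can take its place in the module, had 1544, 1555 and 1263 normalized counts in shControl and 880.0, 621 and 721 in shDYRK1A and fell by 0.97 (SE 0.15, edgeR adjusted p 5.85e-09; -0.57 under TMM). The log2 ratio of CDK8 to CDK19 counts within a library was -0.26, -0.23 and -0.24 in shControl and 0.75, 0.86 and 0.87 in shDYRK1A, a difference of 1.07 that does not depend on scaling. CCNC, the cyclin shared by both, fell by 0.66 (edgeR adjusted p 2.75e-05) and was picked for mention after its value was seen.

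The inhibitors that keep P-TEFb inactive in the 7SK ribonucleoprotein gave 1 call in 3 (33.3%, beside 63.4% of all genes). LARP7, which protects 7SK RNA, fell by 0.45 (SE 0.15, edgeR adjusted p 0.00429; -0.05 under TMM). HEXIM1, which blocks the kinase, had 2042, 1963 and 1639 normalized counts in shControl and 1916, 1708.5 and 1785 in shDYRK1A, a log2 fold change of -0.06 (edgeR adjusted p 0.712; 0.00 without shControl 1A; 0.35 under TMM, edgeR adjusted p 0.000182). MEPCE, which caps 7SK RNA, had 2268, 2183 and 1947 normalized counts in shControl and 2368, 2161 and 2206 in shDYRK1A, a log2 fold change of 0.07 (edgeR adjusted p 0.646; 0.48 under TMM, edgeR adjusted p 2.42e-05). Both overlapped between the groups. The log2 ratio of HEXIM1 to CDK9 counts was -0.61, -0.74 and -0.72 in shControl and -0.31, -0.39 and -0.38 in shDYRK1A, higher in every shDYRK1A library.

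**Figure D4:**
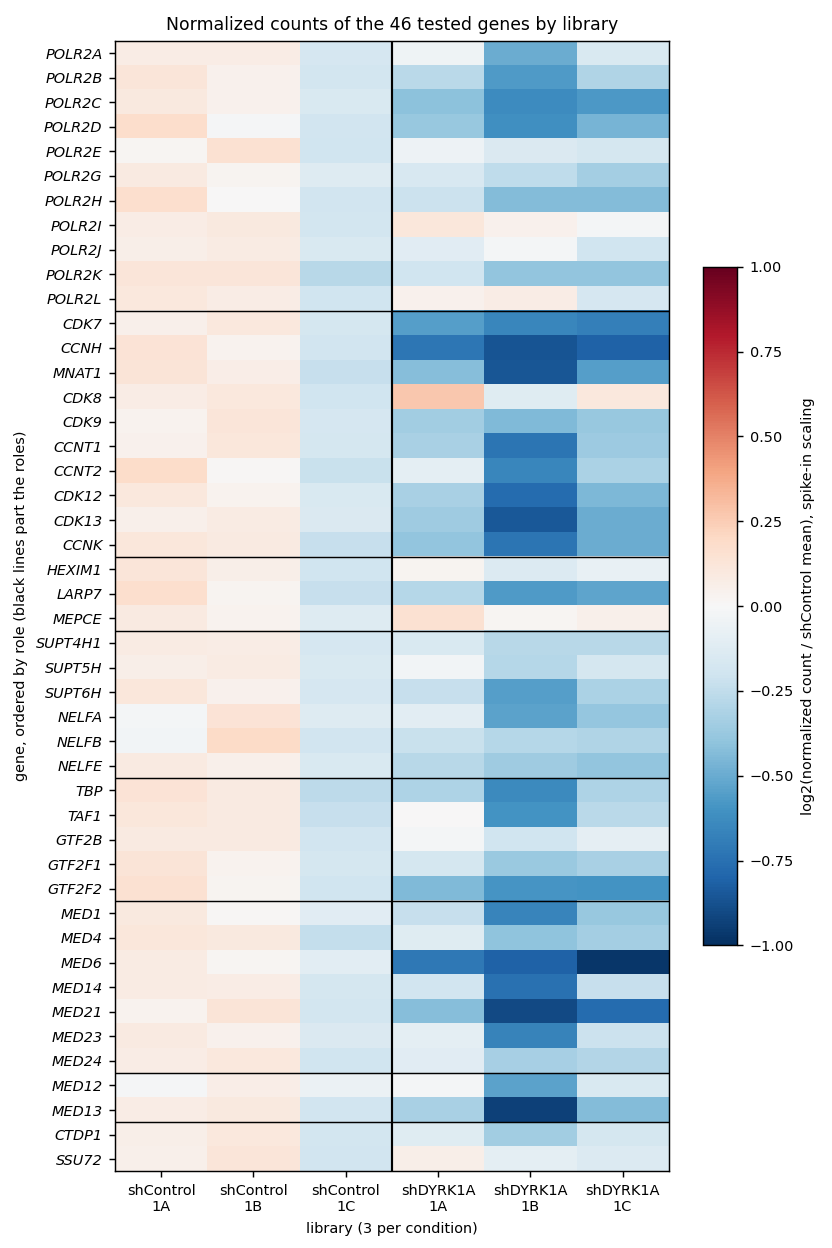
Normalized counts of the 46 tested genes (rows, ordered by role) in each of the 6 libraries (columns), as log2 of the count over the shControl mean, with blue for lower and red for higher. Rows of CDK7, CCNH, MNAT1, MED6 and MED21 are blue in all 3 shDYRK1A libraries, as are rows of other genes such as POLR2C and GTF2F2. Those of POLR2I, CDK8, HEXIM1 and MEPCE are pale. The column of shDYRK1A 1B is the darkest for many genes.

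Of the 6 pausing and elongation factors, 2 fell (33.3%, beside 63.4% of all genes) and 4 did not pass the test, with a median of -0.30 (0.10 under TMM). SUPT6H, a histone chaperone that travels with elongating polymerase, fell by 0.36 (edgeR adjusted p 0.0135; 0.04 under TMM), and NELFE, a subunit of the negative elongation factor NELF, by 0.34 (edgeR adjusted p 0.025; 0.07 under TMM). The NELF subunits NELFA and NELFB had log2 fold changes of -0.33 (edgeR adjusted p 0.0556) and -0.27 (edgeR adjusted p 0.0815), and the groups of NELFB did not overlap. The DSIF subunit SUPT5H, whose promoter is printed above, stood at -0.16 (edgeR adjusted p 0.275), and at 0.24 under TMM (edgeR adjusted p 0.000285). The other DSIF subunit, SUPT4H1, stood at -0.24 (edgeR adjusted p 0.130), and at 0.17 under TMM (edgeR adjusted p 0.0158). SUPT5H had 8233, 8395 and 7116 normalized counts in shControl and 7746, 6502 and 6991 in shDYRK1A, with overlap. SUPT4H1 shares 70.6% of its exonic bases with same-strand genes, so its count is uncertain.

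Among the general initiation factors, 2 of 5 fell (40.0%, beside 63.4% of all genes), with a median of -0.28 (0.12 under TMM). TBP, which binds the TATA box, fell by 0.41 (edgeR adjusted p 0.0207; -0.00 under TMM), and GTF2F2, the small subunit of TFIIF, by 0.54 (edgeR adjusted p 0.00055; -0.13 under TMM). GTF2F1, its partner, had a log2 fold change of -0.28 (edgeR adjusted p 0.0592; 0.12 under TMM). TAF1, the largest subunit of TFIID, and GTF2B, which positions the polymerase at the start site, stood at -0.27 (edgeR adjusted p 0.086; 0.13 under TMM) and -0.10 (edgeR adjusted p 0.540; 0.31 under TMM).

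Of the 7 tested Mediator subunits of core and tail, 4 fell (57.1%, near the 63.4% of all genes) and 3 did not pass the test, with a median of -0.37 (0.03 under TMM). MED6, a head subunit near the polymerase (ENSG00000133997, GRCh38 chromosome 14, 70581257 to 70600690, minus strand, 7.51% of its exonic bases shared with another gene), had 665, 637 and 584 normalized counts in shControl and 383, 359 and 320.4 in shDYRK1A. The highest shDYRK1A library lay well below the lowest shControl library. MED6 fell by 0.83 (SE 0.17, edgeR adjusted p 5.77e-06), and by 0.43 under TMM (edgeR adjusted p 0.00174).

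MED21, a subunit of the middle module (ENSG00000152944, GRCh38 chromosome 12, 27022546 to 27066343, plus strand), had 1113, 1185 and 954 normalized counts in shControl and 807, 581 and 635 in shDYRK1A, without overlap. It fell by 0.68 (SE 0.16, edgeR adjusted p 5.5e-05), and by 0.29 under TMM (edgeR adjusted p 0.00429). MED14, the scaffold that holds the modules together, and MED1, the docking subunit for nuclear receptors, fell by 0.37 and 0.41 (edgeR adjusted p 0.0177 and 0.00699; 0.03 and -0.02 under TMM). MED4, MED23 and MED24 stood at -0.28, -0.31 and -0.24 and did not pass the test with the spike-in. MED17 and MED26 were under the expression limit, with means of 298 and 235 normalized counts in shControl. In a fit over 17530 genes with edgeR's own filter their log2 fold changes were -0.31 (edgeR adjusted p 0.145) and -0.13 (edgeR adjusted p 0.580), and 13.0% and 41.9% of their exonic bases are shared with other genes.

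Of the 2 arms of the Mediator kinase module, 1 fell. MED13, which links the module to core Mediator, had 3372, 3419 and 2809 normalized counts in shControl and 2551, 1680 and 2375.5 in shDYRK1A and fell by 0.54 (edgeR adjusted p 0.000515; -0.14 under TMM). MED12, which activates the kinase, had 2162, 2284 and 2091 normalized counts in shControl and 2145, 1505 and 1965 in shDYRK1A, a log2 fold change of -0.22 (edgeR adjusted p 0.163; 0.17 under TMM) with overlap. In both genes shDYRK1A 1B was the lowest library. The log2 ratio of MED13 to MED12 counts was 0.64, 0.58 and 0.43 in shControl and 0.25, 0.16 and 0.27 in shDYRK1A.

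Neither phosphatase of the tail passed the test with the spike-in. CTDP1 (FCP1) had a log2 fold change of -0.21 (edgeR adjusted p 0.208; 0.19 under TMM, edgeR adjusted p 0.0111) and SSU72 of -0.05 (edgeR adjusted p 0.726; 0.35 under TMM, edgeR adjusted p 0.000149), with overlap in both. SSU72 had 5291, 5544.5 and 4481 normalized counts in shControl and 5329, 4779 and 4641 in shDYRK1A. Its sign turned without shControl 1B (0.01).

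The roles took unequal shares of the human mRNA. The polymerase II subunits together had 1149, 1136 and 1138.5 CPM in shControl and 1286, 1328 and 1288.5 in shDYRK1A, higher in every shDYRK1A library. Per spike-in the same sums were 51748 ± 5283 and 43844 ± 2938 normalized counts (SD, n = 3), with overlap. The kinases and cyclins together had 517, 513.1 and 514 CPM in shControl and 503, 467 and 512.6 in shDYRK1A, lower in every shDYRK1A library though by under 1 CPM between the nearest libraries, and 23344 ± 2358.5 and 16706 ± 1961 normalized counts, without overlap. The phosphatases stood at 134 to 141 CPM in shControl and 169 to 181 in shDYRK1A, and the P-TEFb inhibitors stood at 132 to 139 and 164 to 169 CPM. These sums weigh long and abundant mRNAs most and were not tested.

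The other genes of the pathway, 89 in 5 lists of which 82 were tested, gave 56 lower (68.3%, beside 63.4% of all genes) and 0 higher calls, 12 of them past the fold threshold (14.6%, beside 14.3% of all genes). At an unadjusted p below 0.05 the counts were also 56 and 0, and DESeq2 called 57 lower and 0 higher. Shares of all genes are not given for these counts. The median log2 fold change of the 82 genes was -0.44 (-0.04 under TMM). Of the other Mediator subunits, 12 of 20 fell, from CDK19 at -0.97 to MED11 at 0.05 (0.45 under TMM). Of the other TFIID subunits, 9 of 13 fell. TAF11, a histone-fold subunit, had 1744.5, 1687 and 1414 normalized counts in shControl and 553, 548 and 557 in shDYRK1A and fell by 1.55 (SE 0.16, edgeR adjusted p 1.45e-20; -1.14 under TMM), while TAF10 stood at 0.05 (edgeR adjusted p 0.753; 0.46 under TMM).

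Of the other general initiation factors, 9 of 11 fell, from GTF2H2 at -0.72 (edgeR adjusted p 3.54e-05), a TFIIH subunit with near-identical gene copies and so an uncertain count, to GTF2H5 at -0.09 (0.32 under TMM). GTF2H2 had 1008, 871.5 and 784 normalized counts in shControl and 566, 484 and 569 in shDYRK1A, without overlap. Of the PAF1 complex, super elongation complex and further elongation factors, 13 of 21 fell. SUPT16H, a subunit of the histone chaperone FACT, had 9378, 8907 and 7541 normalized counts in shControl and 4816, 3715 and 4355 in shDYRK1A and fell by 1.003 (SE 0.14, edgeR adjusted p 9.1e-12; -0.60 under TMM), while ELL2 of the super elongation complex stood at -0.02 (edgeR adjusted p 0.898; 0.38 under TMM). Of the further tail-binding, phosphatase and assembly factors, 13 of 17 fell, from RPRD1B, which binds the phosphorylated tail, at -0.79 (edgeR adjusted p 5.4e-07; -0.38 under TMM) to the assembly factor GPN2 at -0.19 (edgeR adjusted p 0.238; 0.21 under TMM). RPRD1B had 2995, 2927 and 2468 normalized counts in shControl and 1778, 1413 and 1671 in shDYRK1A, without overlap.

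**Figure D5:**
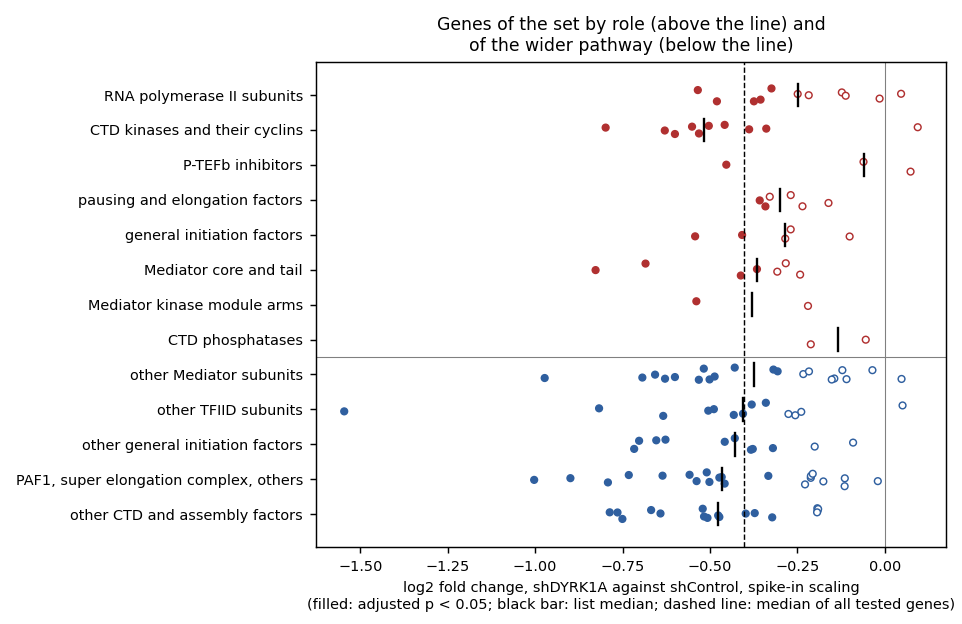
Log2 fold change (spike-in scaling) of each tested gene by role, with the 46 genes of the set in red above the line and 82 further pathway genes in blue below it. Filled points had an adjusted p below 0.05, black bars are medians, and the dashed line is the median of all genes (-0.40). Kinases and cyclins lie furthest left among the roles with a median of -0.52, and TAF11 is the lowest gene shown at -1.55.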

How the data were processed

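Stranded mRNA of 6 libraries of T98G cells was sequenced in pairs of reads, and 1 table of raw counts per library was deposited, with 58174 human genes each. The submitters' processing notes name STAR, DESeq2, hg38 and dm3, and the annotation is not given in the sources used here. Summary lines of these tables (unmapped 8.44 to 15.6%, multimapping 2.26 to 2.49%, outside features 3.66 to 4.81% and ambiguous 3.42 to 3.59% of reads) stayed out of library sizes and tests. A table of normalized signal for 23026 genes, deposited by the authors, holds each raw count divided by 1 constant per library, 0.821 to 1.21, derived from fly reads per the study's methods. Another table in the deposit gives the authors' DESeq2 comparison (mean, log2 fold change, error, Wald statistic, p and adjusted p) and was not used. Coordinates of 95.8% of the 23026 genes matched GENCODE v29, whose build is GRCh38. Columns of samples outside the series numbered 0, and 0 pairs of libraries were identical.

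The raw counts were fitted with edgeR 4.0.16 (glmQLFit and glmQLFTest, robust; R 4.3.3, limma 3.58.1), with the constants as size factors, for the 9697 genes whose mean normalized count was above 10 CPM of the mean library size, and p-values were adjusted by Benjamini-Hochberg over all of them. A call needed an adjusted p under 0.05 and, where stated, a log2 change beyond 0.7. Standard errors are the fold change over the square root of the F statistic. Depth limits precision through counting error, which the model includes. Alternatives were TMM over human genes, DESeq2 1.42.0, the filterByExpr rule of edgeR, a limit of 1 count only, the library letter as a block and each library left out. Steps were tested on simulated data. Every gene of the set, DYRK1A, and both ends of each pathway list by fold change are named, with values in every library for those past the fold threshold, POLR2A and further genes picked for their values. The genes and lists were chosen with earlier results of these data known. One item of the pathway lists is not reported here. Figures were drawn with Python 3.11.15 and matplotlib 3.10.9.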

Additional observations from a re-analysis of the deposited data

How the results depend on the processing

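Under TMM, 6 genes of the set were lower and 16 higher, 0 were lower past the fold threshold, and the median of the set turned to 0.067, while DYRK1A stayed lower (-0.34). The sign turned under TMM for POLR2A (0.18), POLR2B (0.03), POLR2E (0.29), POLR2G (0.16), POLR2H (0.0508), POLR2J (0.30), POLR2K (0.0866), POLR2L (0.40), CDK9 (0.0206), CCNT2 (0.0607), HEXIM1 (0.35), SUPT4H1 (0.17), SUPT5H (0.24), SUPT6H (0.0448), NELFA (0.0675), NELFB (0.14), NELFE (0.067), TAF1 (0.13), GTF2B (0.31), GTF2F1 (0.12), MED4 (0.12), MED12 (0.17), MED14 (0.0318), MED17 (0.0618), MED23 (0.0887), MED24 (0.16), MED26 (0.23), CTDP1 (0.19), SSU72 (0.35), ELL2 (0.38), GTF2H5 (0.32) and GPN2 (0.21). By construction TMM centres the human genes near 0, which the spike-in does not.

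In the fits that left out 1 library, the number of genes lower ranged from 12 (without shControl 1A) to 34 (without shControl 1C), the number past the fold threshold from 2 to 5, the median from -0.42 to -0.25 and DYRK1A from -0.85 to -0.61. The sign turned in at least 1 of these fits for CDK8 (-0.0024 to 0.19), HEXIM1 (-0.15 to 0.0021), POLR2I (-0.039 to 0.099), POLR2L (-0.11 to 0.057), SSU72 (-0.14 to 0.0092), ELL2 (-0.10 to 0.061), GTF2H5 (-0.19 to 0.017), MED11 (-0.044 to 0.12) and TAF10 (-0.015 to 0.10), and the cause was not tested. DESeq2 called 28 genes lower, filterByExpr 24 and no filter beyond 1 count 22, with 0 higher in each. Shares of all genes are not given for these fits or for those that left out 1 library.

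With the library letter as a replicate block, 22 genes were lower, 2 of them past the fold threshold, and DYRK1A stood at -0.74. CCNT2 (adjusted p 0.0515) and POLR2K (adjusted p 0.0573) lost their call in that edgeR fit. Deviations of libraries with the same letter correlated at 0.15, 0.07 and 0.13 (Pearson, computed over genes and so not over independent values), and each library correlated best with its own letter, a hint from the data and not from the design, so the letters were treated as names only.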
